A study of Mus musculus with 3 samples.

Results

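The Cep genes are named for the centrosomal proteins they encode. They were taken here as all protein-coding genes of the mouse annotation GENCODE vM39 whose symbol is Cep followed by a number, which gave 39 of 21770 genes. The contacts of the splicing regulator Tra2β with their RNA were followed in 3 iCLIP libraries, named replicates 1, 2 and 3, from testes of adult wild type Mus musculus. All 3 libraries shared genotype, tissue (mixed cell types, from minced testes) and a polyclonal anti-Tra2b antibody, and they form 1 group of biological replicates. With no control library used here, each comparison was made inside a library, between parts of a gene or between genes.

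The centrosome is built around a pair of centrioles, short cylinders of microtubules that are copied once in each cell cycle. A centriole can also dock at the cell surface as a basal body and carry a cilium, and in the testis it nucleates the flagellum of the sperm. Many Cep proteins are long coiled coils that assemble the new centriole, form its appendages, link centrioles or build the gate of the cilium. Tra2β is an SR-like protein that binds purine-rich RNA, with GAA at the core of its motif, and it acts on splicing mostly from inside exons. In iCLIP, ultraviolet light couples protein to RNA and the end of each cDNA marks the coupled nucleotide. A crosslink below is 1 unique cDNA at 1 nucleotide.

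Sequences of the exons on which the results turn are shown first. They were read on the sense strand, 5′ to 3′, from the genome build GRCm39 (mm39), and capitals mark each GAA. Exon 6 of Cep85l (chr10:53177598-53177777, minus strand) and exon 11 of Cep63 (chr9:102475368-102475482, minus strand) were the internal exons of Cep genes that passed the test for more crosslinks than the rest of their transcript in all 3 libraries, and they are printed whole. Both lie entirely in coding sequence.
Cep85l exon 6: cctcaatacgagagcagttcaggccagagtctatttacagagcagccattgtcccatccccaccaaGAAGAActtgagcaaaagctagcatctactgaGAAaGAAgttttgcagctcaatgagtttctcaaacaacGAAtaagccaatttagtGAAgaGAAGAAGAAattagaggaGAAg
Cep63 exon 11: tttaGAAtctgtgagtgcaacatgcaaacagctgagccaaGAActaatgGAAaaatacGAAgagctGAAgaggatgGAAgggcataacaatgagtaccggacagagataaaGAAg

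The next 6 sequences are windows of 41 nt, each the part with most crosslinks of a coding exon. They come from the exons with the highest mean fold among those that passed a test on the summed libraries only, and they are shown to let the letters under the crosslinks be read. They lie at chr11:108643409-108643449 and chr11:108648595-108648635 for Cep112 (plus strand), chr9:87075662-87075702 for Cep162 (minus strand), chr5:76781522-76781562 for Cep135 (plus strand), chr10:41597579-41597619 for Cep57l1 (minus strand) and chr17:8411050-8411090 for Cep43 (plus strand).
Cep112 exon 23: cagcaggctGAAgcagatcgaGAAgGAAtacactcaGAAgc
Cep112 exon 24: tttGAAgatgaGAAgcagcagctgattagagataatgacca
Cep162 exon 26: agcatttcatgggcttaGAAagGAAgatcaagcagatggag
Cep135 exon 20: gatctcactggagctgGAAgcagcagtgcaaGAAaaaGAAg
Cep57l1 exon 10: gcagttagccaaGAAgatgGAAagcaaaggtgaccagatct
Cep43 exon 11: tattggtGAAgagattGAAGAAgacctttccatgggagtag

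The libraries held 348033, 619571 and 488719 crosslinks in replicates 1, 2 and 3, of which 224454, 306672 and 344580 lay in protein-coding genes. A gene with no crosslink could have had up to 3 counts, which is 13.4, 9.78 and 8.71 CPM (counts per 1000000 crosslinks in protein-coding genes). Replicate 2 stood apart with few crosslinks in exons: 26.8% (95% exact interval 26.7 to 27.0) over all other protein-coding genes, against 43.0% (42.8 to 43.2) in replicate 1 and 55.5% (55.4 to 55.7) in replicate 3. All 15 germ cell markers of the testis carried crosslinks, up to 1369 CPM for Spata16, as did the 5 Sertoli and 4 Leydig cell markers, up to 127 and 48.0 CPM, and markers of other tissues gave 2 crosslinks in all. Crosslink levels combine the amount of RNA with its contact by Tra2β, and in whole testis fewer cells of a type and less RNA per cell cannot be told apart. Intervals cover counting error only.

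How strongly were Cep transcripts contacted? Every one of the 39 genes had crosslinks in all 3 libraries, as did 10982 of the other 21731 protein-coding genes. Of those other genes 5453 had none in any library. Together the Cep genes held 2306, 2411 and 4011 crosslinks in replicates 1, 2 and 3, which is 0.993% ± 0.191 (SD, n = 3) of the crosslinks in protein-coding genes. They make up 0.179% of these genes and 0.266% of their length. The median Cep gene stood at 140 CPM ± 28.1 (SD, n = 3), beside 5.59 CPM ± 1.05 for the other genes. Cep genes are longer than most, with a median span of 41683 nt and 16 exons against 16204 nt and 7 exons, and length alone raises a crosslink total. Per kb of exon the median Cep gene still had 14.2 exonic CPM beside 0.687 for the other genes, and 12 of the 39 were among the 1000 highest of all protein-coding genes on that scale. The other genes include many with few or no crosslinks, and only 32.1% of them reached 20, beside 97.4% of Cep genes. Among genes with at least 20 the medians were closer, at 13.6 and 5.40 exonic crosslinks per kb over the 3 libraries. These are descriptions of the set, and no test over its members was made.

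The same held, with lower values, for a list of other centrosome genes that includes Pcnt, Cdk5rap2 and Plk4. Of its 39 symbols 38 were found, 37 of these had crosslinks, and 35 had them in all 3 libraries. Their median was 73.5 CPM ± 5.74 (SD, n = 3) and 8.12 exonic CPM per kb.

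Over the whole gene, Cep112, which encodes a coiled-coil protein, had the highest total among the Cep genes. It reached 1056, 1643 and 871 CPM in replicates 1, 2 and 3, a mean of 1190 ± 403 (SD, n = 3) and rank 38 among all protein-coding genes. Cep128, a protein of the subdistal appendages that anchor microtubules, came next with 1127, 786 and 1010 CPM. The range of Cep112 overlapped that of Cep128. Cep85l, the paralogue of the Plk4 activator Cep85, had 771, 329 and 1193 CPM. Cep126, which is needed for cilium formation, had 655, 535 and 711 CPM. These 4 genes held 3124 of the 8728 Cep crosslinks, 35.8%. The remaining genes among the 10 highest were Cep63 (mean 592 CPM), Cep350 (588), Cep83 (519), Cep290 (430), Cep295nl (385) and Cep43 (350). They span roles from centriole duplication (Cep63) and microtubule anchoring (Cep350, Cep43) to the distal appendages (Cep83) and the transition zone of the cilium (Cep290). At the other end lay Cep68, a protein of the centrosome linker, with 7, 4 and 5 crosslinks and a mean of 19.6 CPM.

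Because exon length differs between genes, levels were also compared per kb of exon. Cep295nl had the highest mean on this scale, 172 exonic CPM per kb ± 135 (SD, n = 3), but its values were 215, 21.3 and 281 in replicates 1, 2 and 3, and 52 of its 340 crosslinks lay in bases that are also exon of another gene on the same strand. Cep63, the partner of Cep152 in centriole duplication, followed at 82.6, 27.9 and 169, and Cep128 at 101, 35.4 and 137. Among the 7 highest genes on this scale, the most even was Cep126, at 72.4, 43.2 and 97.3. The spread between libraries was wide. All 38 pairs of neighbours in the order of means overlapped in their ranges, replicate 2 was the lowest library in 28 of the 39 genes and replicate 3 the highest in 27. By role, the median level over the whole gene was 173 CPM ± 8.44 (SD, n = 3) for the 13 genes of centriole assembly and duplication, 120 ± 31.4 for the 13 genes of the cilium and its appendages, and 124 ± 9.41 for the 8 genes of linkers, subdistal appendages and satellites. It was highest, at 293 ± 149, for the 4 genes whose role was unsure (Cep85l, Cep295nl, Cep95 and Cep15). Cep55 stood alone at 37.9 ± 6.26. Each gene was counted once, Cep350 with the centriole group and Cep43 with the cilium group.

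**Figure D1:**
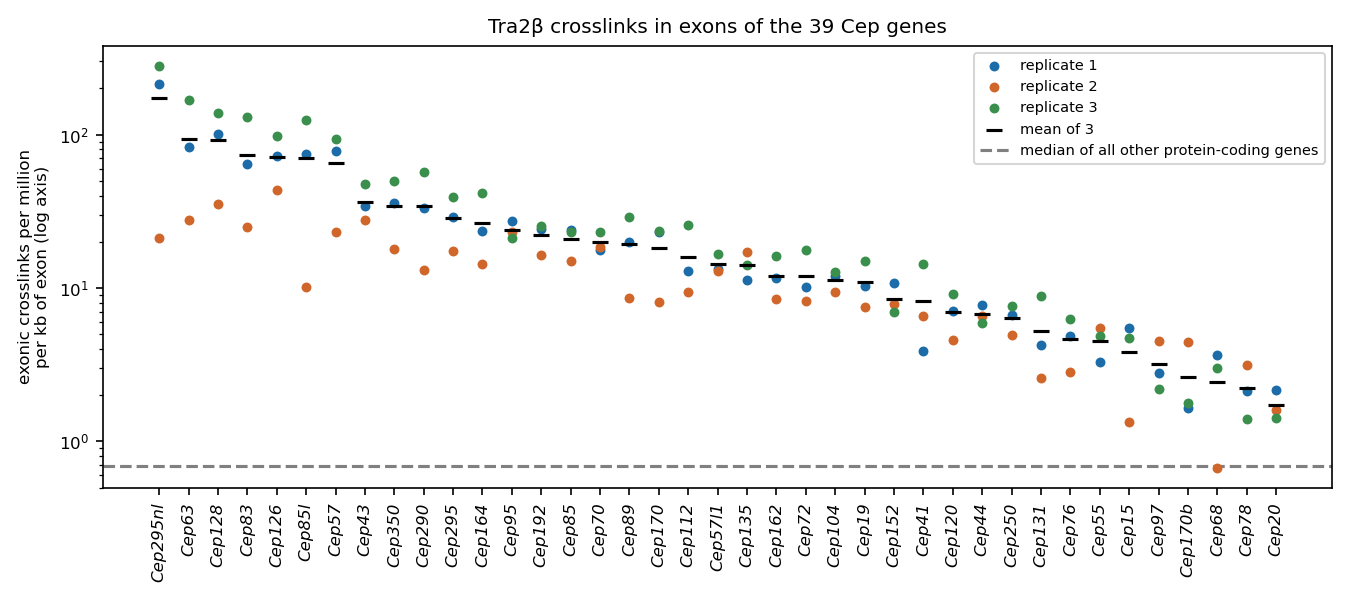
Exonic CPM per kb of exon (log axis) for each of the 39 Cep genes, with 1 point per library, a dash for the mean of 3 and a dashed line at the median of all other protein-coding genes, 0.687. The genes span from 172 for Cep295nl to 1.73 for Cep20, and replicate 2 lies lowest in 28 of them.

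Paralogues were set side by side on the per kb scale. Cep57, a scaffold that holds paired centrioles together, had 78.6, 23.0 and 93.3 exonic CPM per kb against 13.3, 12.9 and 16.6 for Cep57l1, and these ranges did not overlap. Cep170, of the subdistal appendages, had 23.2, 8.08 and 23.5 against 1.65, 4.42 and 1.79 for Cep170b, again without overlap. The values of Cep170b rest on only 3, 11 and 5 exonic crosslinks in replicates 1, 2 and 3. Cep85l had 75.0, 10.1 and 125 against 24.0, 15.1 and 23.1 for Cep85, where replicate 2 reversed the order. With 3 libraries a sign-flip test cannot give a two-sided p below 0.25, so no p is given for these pairs.

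Were the crosslinks in exons or introns? Of the crosslinks in Cep genes, 52.4% (50.3 to 54.4), 32.8% (30.9 to 34.7) and 66.7% (65.2 to 68.2) were exonic in replicates 1, 2 and 3. The median exon share of a gene was 51.2% ± 11.5 (SD, n = 3), beside 36.4% ± 8.03 in the other genes with at least 20 crosslinks. In the list of other centrosome genes the median was higher, at 57.1% ± 3.37. In 38 of the 39 Cep genes, all but Cep68, there were at least 20 crosslinks for a test of the exon share against the exon length of the gene. In 27 of these 38 the exons held more than their length share in all 3 libraries at an adjusted p under 0.05 (two-sided exact binomial test per library, Benjamini-Hochberg over all genes), and in none less. Over all 6907 genes tested, the exons held more in 32.3% and less in 0.0145%. The count differed with depth. Among genes with at least 100 crosslinks, a limit added after seeing the data, 22 of 22 Cep genes were called, beside 63.4% of all 2218 such genes. Of the other centrosome genes 20 of 34 were called. By role, 10 of 13 centriole genes, 8 of 13 cilium genes, 6 of 7 linker genes and 3 of 4 genes of unsure role were called. Cep55, which acts in the final cut of cell division, was not, with 22 of 34 crosslinks in exons and a largest adjusted p of 0.283 in the same exact test.

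The exon share differed widely between genes. Among the 30 Cep genes with at least 50 crosslinks the mean share ran from 10.9% to 82.2%. Cep250, the linker protein C-Nap1, was highest at 82.2% ± 16.8 (SD, n = 3), from 12 of 15, 12 of 18 and 21 of 21 crosslinks. Then came Cep295nl at 79.8% ± 20.2, Cep295, which converts centrioles to centrosomes, at 76.7% ± 9.96, Cep350 at 76.0% ± 7.81 and Cep164, a distal appendage protein, at 73.4% ± 8.12. Their exons make up 10.4% to 19.5% of the gene length. Cep112 was lowest, with 20 of 237, 20 of 504 and 61 of 300 crosslinks in exons, a mean share of 10.9% ± 8.46. It was followed by Cep57l1 at 28.6% ± 9.94, Cep41, a factor of tubulin glutamylation in cilia, at 36.2% ± 18.1, Cep43 (Fop) at 37.0% ± 9.96 and Cep70, a protein of microtubule organisation, at 38.0% ± 7.14. Even so, the exons of Cep112 are 1.58% of its length, and it was among the genes called, with a mean log2 fold of exon over intron density of 2.65 ± 1.30 (SD, n = 3) and a largest adjusted p of 0.00144 in the exact test. The largest fold over introns was in Cep128, at 5.89 ± 1.40 on the log2 scale, where exons are 1.26% of the gene and held 111 of 253, 53 of 241 and 231 of 348 crosslinks. In 28 of the 39 genes the share was lowest in replicate 2, as it was over all genes.

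**Figure D2:**
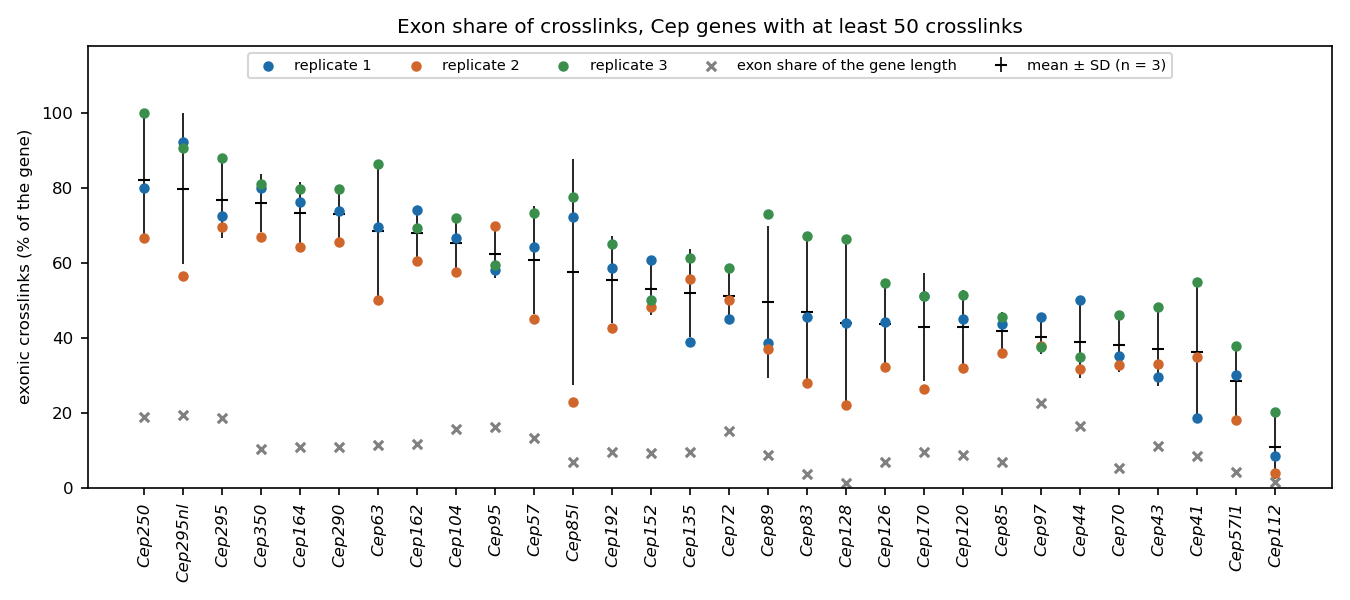
Share of crosslinks in exons (percent of the gene) for the 30 Cep genes with at least 50 crosslinks, with 1 point per library, bars for the mean ± SD (n = 3) and grey crosses for the exon share of the gene length. The mean share runs from 82.2% in Cep250 to 10.9% in Cep112, and the points of most genes lie well above the cross.

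Inside the mature transcript, Cep crosslinks lay in coding sequence. It held 89.2% (87.4 to 90.9), 92.8% (90.8 to 94.5) and 87.6% (86.3 to 88.9) of exonic crosslinks in replicates 1, 2 and 3, while making up 58.4% of exonic length. In the other genes the coding part held 78.3% ± 2.86 (SD, n = 3) on 47.0% of length. The 3' UTRs of the Cep genes are 34.5% of exonic length and held 6.92% ± 2.07 of crosslinks. In the other genes they are 44.6% of length and held 17.0% ± 2.75. Summed over libraries, Cep genes had 33.8 crosslinks per kb in coding sequence and 4.89 per kb in 3' UTR, beside 7.97 and 1.86 in the other genes. Among the 37 Cep genes with a 3' UTR of at least 100 nt, coding sequence was the denser in 35, the others being Cep250 and Cep68. This count was not made for the other genes. Cep128 stood out among the 37, chosen after its values were seen: its 3' UTR of 1039 nt held 21, 2 and 48 crosslinks, 68.3 per kb over the 3 libraries, beside 94.1 per kb in its coding sequence. The next highest 3' UTR was that of Cep57, at 25.0 per kb. Without Cep128 the 3' UTRs of the other genes held 3.97 per kb.

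Across the splice sites the change was steep. In 382 internal Cep exons of over 100 nt between introns of at least 400 nt, the 50 nt of intron after the exon held 3, 0 and 11 crosslinks, and the last 50 nt of the exon held 186, 164 and 423. On the upstream side the 50 nt of intron held 16, 15 and 18, and the first 50 nt of the exon 167, 99 and 401. Relative to the exon middle, the density was 1.06 ± 0.0584 (SD, n = 3) in the first 50 nt and 1.35 ± 0.346 in the last 50 nt. The rise at the exon end came mostly from replicate 2, at 1.75, against 1.12 and 1.18 in replicates 1 and 3. The other genes gave 0.944 ± 0.133 and 1.16 ± 0.356 at the same places, within the spread between libraries of the Cep values at the exon end.

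**Figure D3:**
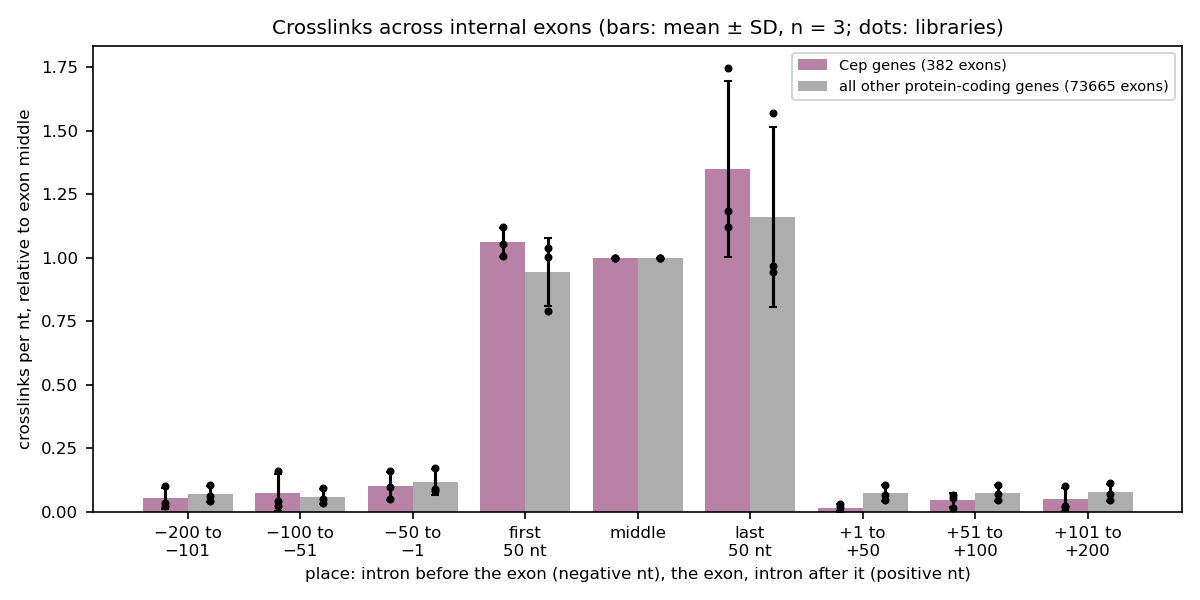
Crosslinks per nt across internal exons and the intron next to them, relative to the exon middle, for 382 exons of Cep genes and 73665 exons of all other protein-coding genes. Bars show the mean ± SD over 3 libraries and dots the libraries; all intron parts are under 0.2, and the last 50 nt reach 1.75 in replicate 2 for Cep genes.

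Individual exons were then compared with the rest of their own transcript. The 32 Cep genes with at least 20 exonic crosslinks gave 609 internal exons, of which 87 (14.3%) had no crosslink in any library, beside 26.8% of 50958 internal exons in the other genes. Only 2 of the 609 were called above the rest of their transcript in all 3 libraries, beside 0.167% of all 51567 exons tested. None was called below, beside 0.00388% of all exons. The median Cep exon held 3 crosslinks over the 3 libraries, so a call below was hardly possible for most. At an unadjusted p under 0.05 in the exact test, 4 were above and 0 below in all 3 libraries, and in at least 1 library 121 were above and 4 below. After adjustment, 30 were above in at least 1 library and 0 below. These looser counts were made for Cep exons only, so no share over all exons stands beside them. Exons of the other genes also had mostly positive log2 folds, with a median of 1.24 beside 0.894 for Cep exons. The constant added to each side of a fold can make it positive without any crosslink. Exon 10 of Cep44, with no crosslink, had a mean log2 fold of 2.65. Exons with no crosslink were also more frequent in the other genes. The medians therefore cannot show that exons lay above, or in which set they lay higher. With the libraries summed before the test, 25 of the 609 were above in the same direction in each library. That is 4.11%, close to the 3.62% of all exons under that rule. These 25 lay in 15 genes, with 5 in Cep63 and 3 in Cep85l. In replicate 2 the exons of the 39 genes together held 790 crosslinks. The count called above was 4 without replicate 2, 3 without replicate 1 and 2 without replicate 3. Over all genes these counts were 220, 178 and 106. One member of the list of other centrosome genes was called, an exon of Cetn3, among 430 exons tested.

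Exon 6 of Cep85l, one of 13 exons, held 26 of 125, 6 of 23 and 43 of 319 exonic crosslinks in replicates 1, 2 and 3. It is 180 nt of 7425 nt. The log2 folds over the rest of the transcript were 3.42, 3.90 and 2.66, a mean of 3.33 ± 0.625 (SD, n = 3), with a largest adjusted p of 0.00363 in the exact test. The crosslinks lay on 47 positions, 10 of them shared by at least 2 libraries, and at most 6 crosslinks were on 1 nucleotide. Its sequence holds 10 GAA, of which 5 fall in the 41 nt with most crosslinks (17, 6 and 28 in replicates 1, 2 and 3), the stretch near the 3′ end that reads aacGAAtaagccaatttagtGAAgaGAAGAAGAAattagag. Exons 7 and 8 next to it were almost as dense, at 366 and 374 crosslinks per kb summed over libraries beside 417 in exon 6. Exon 7 had no crosslink in replicate 2, but in replicate 3 it was denser than exon 6, at 242 against 239 per kb. In that library exon 8 was also at 239.

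Exon 11 of Cep63, one of 16 exons, held 12 of 89, 10 of 41 and 17 of 279 exonic crosslinks. It is 115 nt of 4799 nt, a length that is not a multiple of the codon. The log2 folds were 2.72, 3.76 and 1.44, a mean of 2.64 ± 1.16 (SD, n = 3), and the largest adjusted p in the exact test was 0.0486, in replicate 3. The exon was the densest of the gene in replicates 1 and 2, and in replicate 3 it lay below exons 6, 9 and 12. Its sequence holds 7 GAA, 4 of them in the window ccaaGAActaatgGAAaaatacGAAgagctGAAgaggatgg with 7, 4 and 11 crosslinks.

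Both calls depended on the reference, as most did over all genes. Over all genes 86 exons were called above in the main test, 11 against other internal exons and 10 against coding parts only. The last exons of Cep85l and Cep63 are mostly 3' UTR, and they held 32 crosslinks on 4802 nt and 35 on 2425 nt, all libraries summed. Against the other internal exons, the mean log2 fold fell to 1.73 ± 0.862 (SD, n = 3) for Cep85l exon 6 and to 1.55 ± 1.11 for Cep63 exon 11, with largest adjusted p-values of 0.280 and 1 in the exact test, so neither was called. Against coding sequence alone the means were 1.87 ± 0.896 and 1.59 ± 1.12, and again neither was called. Each was the densest coding exon of its gene with the libraries summed, at 417 and 339 crosslinks per kb against 166 and 161 in the other coding sequence. The call of Cep63 exon 11 was also lost when each position was counted once.

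**Figure D4:**
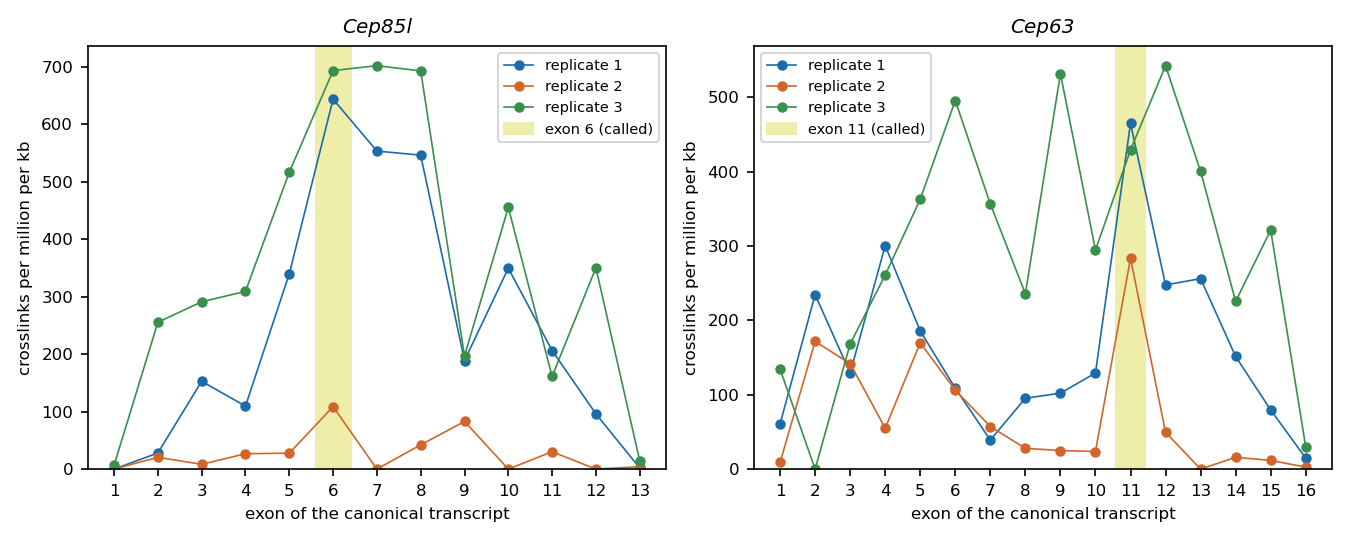
CPM per kb in each exon of the canonical transcripts of Cep85l and Cep63, with 1 line per library and the called exon shaded. In Cep85l exons 6 to 8 are high in replicates 1 and 3 and the last exon is near 0; in Cep63 exon 11 is the highest in replicates 1 and 2.

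Exons that other coding transcripts skip were compared with those they keep. Of the 609 internal exons 116 were skipped in at least 1 annotated coding transcript, and they held 44.5 crosslinks per kb over the 3 libraries, beside 34.6 in the 493 others. The medians per exon were 21.8 and 21.0 per kb. The other genes gave 32.9 and 24.1 per kb in total and medians of 14.8 and 12.3. Exons 23 and 24 of Cep112, whose windows are printed above, are both skipped by 3 annotated coding transcripts and had mean log2 folds of 3.50 ± 1.17 and 3.27 ± 0.309 (SD, n = 3), from 7 and 16 crosslinks. Both were picked for a high fold, and neither was called in all 3 libraries. The rest of their transcript includes a 3' UTR of 3852 nt with few crosslinks.

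Which letters lay at the crosslinks? The coding sequences of Cep genes are rich in GAA, with a median of 3.31 per 100 nt beside 2.11 in the other genes, and 37 of 39 lay above that value. Cep290 was highest at 5.46 and Cep83 next at 5.25, and the lowest were Cep170b at 1.50 and Cep68 at 1.91. The median purine share was 56.6% beside 51.7%. At crosslinked positions in coding exons, GAA lay within 15 nt at 74.6% (71.8 to 77.2), 83.0% (80.0 to 85.7) and 72.2% (70.2 to 74.0) of positions in replicates 1, 2 and 3, from 1038, 717 and 2148 positions. Over every position of the same exons it was 71.2%, 74.9% and 70.4%. The ratio was thus 1.05, 1.11 and 1.03, above 1 in all 3 libraries, and 1.06 ± 0.0424 (SD, n = 3) on average. The other genes gave 1.07 ± 0.0523, which differed from it by less than the spread between libraries. The Cep genes thus differed from the other genes in the share itself (76.6% ± 5.68 against 67.7% ± 3.52), as in the share over all positions (72.2% ± 2.44 against 63.2% ± 0.350), and hardly in the ratio. When the 609 internal exons were divided by their GAA content into groups of 203, 204 and 202, the median was 13.6 crosslinks per kb in the low group, 17.4 in the middle and 37.9 in the high. The share of exons with no crosslink was 19.7%, 15.2% and 7.92% in the same order. Of the 25 exons above in the summed test, 1, 8 and 16 were in these groups. Exons of 1 gene share its level, so the groups also differ in which genes they hold, and how much of the difference this carries was not tested.

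In introns the crosslinks were uneven in a few genes. Of 591 introns in 31 Cep genes with at least 20 intronic crosslinks, 4 were above the other introns of their gene in all 3 libraries, beside 0.313% of all 75071 introns, and 1 was below, beside 0.153%. All 5 kept their call under each alternative that was run.

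Intron 6 of Cep43 (chr17:8391841-8401059, 9219 nt) held 47 of 64, 50 of 61 and 50 of 62 intronic crosslinks of the gene, 78.7% ± 4.59 (SD, n = 3), on 33.1% of the intronic length. Its mean log2 fold was 2.88 ± 0.371 (SD, n = 3), with a largest adjusted p of 7.29e-08 in the exact test. Intron 4 of Cep126 (chr9:8103518-8112080, 8563 nt) held 44 of 82, 74 of 111 and 53 of 111, on 15.9% of the length, a mean log2 fold of 2.76 ± 0.574 and a largest adjusted p of 1.02e-11. Within it the crosslinks were most frequent in the middle, with 36 and 34 of 171 in the fifth and the sixth of 10 equal parts. Intron 5 of Cep126, the gene the study named for an alternative exon, had 3, 3 and 5 crosslinks and did not pass the test. Introns are numbered here by the canonical transcript, whose intron 5 holds no annotated alternative exon, and the transcript by which the study numbered its exon is not given in the sources used here, so these need not be the values of that exon's intron.

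Intron 24 of Cep128 (chr12:90975710-90986065, 10356 nt) held 22 of 142, 23 of 188 and 17 of 117, on 2.72% of the length, a mean log2 fold of 2.58 ± 0.205 and a largest adjusted p of 1.05e-05. Intron 22 of Cep112 (chr11:108555553-108643403, 87851 nt) held 105 of 217, 269 of 484 and 103 of 239, on 20.3% of the length, a mean log2 fold of 1.91 ± 0.362 and a largest adjusted p of 2.40e-12. This intron alone gave 477 of the 1041 crosslinks of the gene, spread over 469 positions and all of its 10 equal parts. A processed pseudogene inside it, Rpl23a-ps14, accounted for 6. Intron 18 of the same gene, of 38822 nt, was the one below the rest, with 2, 4 and 5 crosslinks, a mean log2 fold of -2.85 ± 0.693 and a largest adjusted p of 0.00296. None of the 4 high introns had more than 3 crosslinks on 1 nucleotide.

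**Figure D5:**
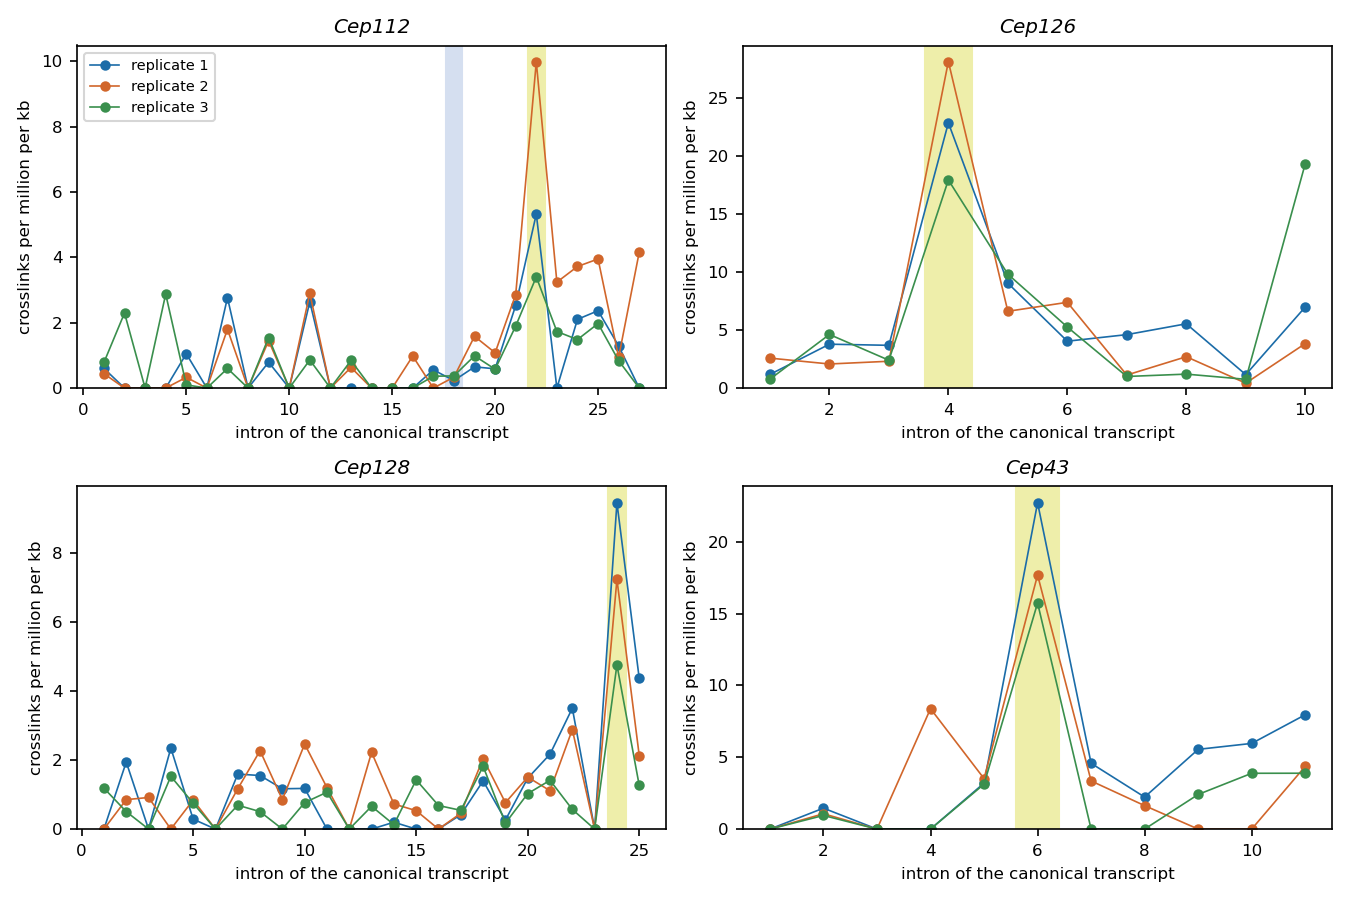
CPM per kb in each intron of Cep112, Cep126, Cep128 and Cep43, with 1 line per library. Yellow marks the 4 introns called above the other introns of the gene (Cep112 intron 22, Cep126 intron 4, Cep128 intron 24, Cep43 intron 6) and blue the 1 called below (Cep112 intron 18); all 3 libraries peak in the yellow intron of Cep112, Cep128 and Cep43, and in Cep126 replicate 3 is also high in intron 10.

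Alternative exons, that is internal exons of other transcripts that lie wholly in an intron of the canonical one, numbered 64 in 27 Cep genes and held 65 crosslinks in all. Of these, 20 had a crosslink and 35 lay in introns deep enough for a test. None was called above its host intron in all 3 libraries, beside 0.11% of 5459 over all genes. With the libraries summed and the direction required in each, again none was called, beside 1.21%. Without that requirement, 4 passed in the summed libraries, and each of these had no crosslink in at least 1 library. They were an exon of 60 nt in intron 6 of Cep43 (exact test, adjusted p = 1.18e-06), one in intron 1 of Cep85l with 1, 0 and 4 crosslinks (exact test, adjusted p = 9.86e-06), one in intron 21 of Cep128 with 0, 0 and 3 (exact test, adjusted p = 0.0231) and one in intron 1 of Cep57l1 with 0, 6 and 1 (exact test, adjusted p = 0.0257). At an unadjusted p under 0.05 in the exact test 0 were above in all 3 libraries and 5 in at least 1. The counts of 4 and 5 were made for Cep genes only, so whether they differ from all genes was not tested. Only 2 held 10 or more crosslinks. The exon of 60 nt in intron 6 of Cep43 (chr17:8394351-8394410) had 1, 10 and 0 crosslinks, with 10 of its 11 in replicate 2. It overlaps exons of coding transcripts and of transcripts annotated as subject to nonsense-mediated decay or as retaining an intron. The exon of 1136 nt in intron 4 of Cep126 (chr9:8104654-8105789), found in a transcript subject to nonsense-mediated decay, had 3, 7 and 5, and at 13.2 crosslinks per kb it was less dense than the rest of its intron at 21.0.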

How the data were processed

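Per the labels and the methods, testes of adult wild type mice were minced and used for iCLIP with a polyclonal anti-Tra2b antibody, and the authors processed the reads with the iMAPS pipeline. As deposited, each crosslinked nucleotide and strand carries a whole-number count of unique cDNAs, neither normalised nor pooled. The submitters' processing notes name Trim Galore 0.6.7, Bowtie 1.3.1, STAR 2.7.9a, UMI-tools 1.1.2 and mm39, and how multimapping reads were handled is not given in the sources used here. All positions fitted GRCm39. No control library was used.

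Counts were summed by strand over exons and introns of the Ensembl canonical transcript of each protein-coding gene (GENCODE vM39), with Python 3.11.15, numpy 2.4.6, scipy 1.17.1 and pandas 2.3.3. Tests were two-sided exact binomial tests on length, per library, with Benjamini-Hochberg adjustment over all features, and a feature was called when all 3 libraries gave an adjusted p under 0.05 in 1 direction. Genes needed 20 crosslinks and introns that host alternative exons 10, over the 3 libraries. Log2 folds have 0.5 crosslinks added to each side, which raises those of exons with few crosslinks. Binomial tests treat crosslinks as independent, although several can come from 1 site, and the rule over 3 libraries is the guard. Coding sequence leaves out the stop codon, and GAA was searched on the sense strand of the genome, so that at exon ends it can lie in the intron.

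Named were the 10 highest genes by CPM, the 5 highest and 5 lowest in exon share among those with at least 50 crosslinks, called exons and introns, alternative exons with at least 10 crosslinks, and Cep126. The sequence windows beyond the called exons were added by fold order. Members and lists were chosen with earlier results of these data known. Alternatives were position counting, leaving out each library, summed libraries, masking of other genes, doubled minimums, other references, scalings and windows.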

Additional observations from a re-analysis of the deposited data

Results flagged for a closer look

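Crosslinks on the strand opposite to Cep genes belong to none of the comparisons above and were above the limit of 3 counts. Over the 39 genes they numbered 737, with 175, 344 and 218 in replicates 1, 2 and 3, beside 8728 on the sense strand. Of these, 424 (57.5%) lay in another annotated gene on that strand. Most of the rest were opposite Cep112, which had 240 in all and 178 outside annotated genes. In Cep exons the opposite strand held 85, or 0.404 per kb, beside 22.2 per kb in sense.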

How the results depend on the processing

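The calls that moved were those of single exons and introns. For exons above the rest of their transcript, the 2 called became 1 with each position counted once, 0 with internal exons only as reference, 0 with coding parts only (added after seeing the data) and 25 with libraries summed. Over all genes the 86 called became 70, 11, 10 and 1869 in the same order. For Cep exons, leaving out 1 library gave 2 to 4, with 4 without replicate 2, beside 220 over all genes. Introns above the others of their gene were 4, and 20 with libraries summed, which is 3.38% of 591 beside 3.45% of all 75071 introns. Introns below were 1, and 29 with libraries summed, which is 4.91% beside 2.71%. The median exon share was 63.2% with exons of all transcripts, the median level was 87.7 CPM when scaled to all crosslinks, and the Cep share was 0.624% of all crosslinks. GAA lay within 5 nt at 44.5% and within 30 nt at 90.0% of positions. Positions are counted once in that share, so the alternative that counts them once was the main setting. The remaining alternatives, other minimums and masking among them, left the counts within 1.5 times and the medians within 1 SD. Two-group and paired tests were not possible with 1 group. The median internal Cep exon held 3 crosslinks over the 3 libraries, and 95 of 609 held at least 10.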
